A study of Mus musculus with 24 samples.

Results

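PU.1, the product of *Spi1*, was followed with 8 other transcription factors of stem and progenitor cells in the deposited mRNA values of Cas9-expressing lymphoid progenitors given sgRNAs against *Cbfb*, *Ctcf* or *Med12*. The 9 genes, *Spi1*, *Bcl11a*, *Lmo2*, *Mef2c*, *Hhex*, *Erg*, *Mn1*, *Cebpa* and *Lyl1*, were taken by their symbols, and each has 1 row among the 55487 genes of both value tables. All 9 passed the filter on low values in both tables. Experiment 1 has LPs with sgControl, LPs with sgCbfb, Phase 1 cells with sgControl and Phase 1 cells with sgCbfb, and experiment 2 has LPs with the sgRNA sgControl, with sgCbfb, with sgCTCF and with sgMed12, and each of the 8 groups has 3 libraries. Every group, the controls included, consisted of Cas9-LP cells, which are lines grown from fetal liver of mice that lack *Ebf1* and carry Cas9 at *Rosa26*. The cells therefore cannot enter the B lineage in the usual way. They grew on mitomycin C-treated OP9 stroma with SCF, Flt3L and IL-7. Phase 1 cells were on OP9-DLL4, which presents a Notch ligand, for 2 days. Retroviruses delivered the sgRNAs together with hNGFR, with a pool of 3 sgRNAs for each targeted gene and luciferase sgRNAs as sgControl. hNGFR+ CD45+ cells were sorted 5 days after transduction, so a sorted cell had received an sgRNA, and whether each of its alleles was cut is not read by these libraries.

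*Cbfb* encodes the partner that the RUNX proteins need for stable binding to DNA, CTCF shapes chromatin loops and insulation, and Med12 belongs to the kinase module of Mediator. PU.1 is an ETS family factor that works in a dose-dependent way in macrophage, B cell and early T cell precursors, and early T progenitors shut *Spi1* off as they commit. BCL11A, MEF2C, HHEX, ERG, MN1, LMO2 and LYL1 are likewise known from stem cells and multipotent or lymphoid progenitors, and C/EBPα drives granulocyte and monocyte differentiation together with PU.1.

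QuantSeq reads the 3′ end of polyadenylated mRNA. The values are CPM, the reads of a gene scaled to the same total of reads on genes in every library, and were not divided by gene length, so levels are compared between groups and not between genes. Between 1363263 and 1743319 reads per library fell on genes in experiment 1 and between 3354483 and 4326782 in experiment 2. The floor of 3 reads, which a listed 0 leaves possible by counting error alone, was 1.72 to 2.20 CPM in the libraries of experiment 1 and 0.693 to 0.894 CPM in those of experiment 2. The methods describe the replicates as biologically independent. The *Cbfb* mRNA was lower in LPs that carried sgCbfb, from 86.5 ± 9.30 to 40.2 ± 5.18 CPM in experiment 1 and from 114 ± 8.37 to 48.4 ± 6.93 CPM in experiment 2 (SD, n = 3), and it was 66.5 ± 19.2 against 53.9 ± 9.69 CPM in Phase 1 cells. *Ctcf* was 391 ± 30.7 CPM with sgControl and 306 ± 29.96 CPM with sgCTCF, and *Med12* was 5.14 ± 1.26 and 7.01 ± 3.38 CPM with sgControl and sgMed12. A 3′ tag does not read the cut sites, so these mRNA levels do not show how much protein was lost. The paper checked depletion of Cbfβ, CTCF and Med12 by immunoblot of hNGFR+ LPs 3 days after transduction, and reports loss of the CBFβ protein. Replicate 3 of Phase 1 sgControl and replicate 2 of sgMed12 stood apart from their groups. The chi-square per degree of freedom between the counts of such a library and the others of its group was 8.01 to 15.98, where all other pairs within groups had 2.45 to 4.72. For the 9 genes, results with either group are given with and without that library where it changed a call. The other genes named below are given with all libraries in, and their calls were not checked without it.

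The 9 genes lie on 8 chromosomes of mm10. *Spi1* spans chr2:91082390-91115756 and *Lmo2* chr2:103957986-103981878, both on the plus strand. *Mn1* is at chr5:111417362-111457033, *Cebpa* at chr7:35119293-35121928, *Lyl1* at chr8:84701457-84704715 and *Bcl11a* at chr11:24078056-24174123. *Mef2c* is at chr13:83504034-83667080, *Hhex* at chr19:37434810-37440731, and *Erg* at chr16:95359169-95586593, the only one of the 9 on the minus strand in GENCODE M21. No exon base of *Spi1*, *Lmo2*, *Mef2c*, *Hhex*, *Erg* or *Mn1* is shared with another annotated gene. *Bcl11a* shares 316 exon bases with the antisense gene *4930538E20Rik* and *Cebpa* shares 51 with the antisense gene *Gm45091*, and both antisense genes are listed at 0 in all libraries. *Lyl1* shares 4 exon bases toward its 3′ end with *Nfix*, which lies on the opposite strand. *Nfix* ranged from 80.6 to 140.5 CPM over the 24 libraries, and the sources used here do not say if reads were counted by strand.

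RefSeq promoter windows of GRCm38.p6, 250 bases before to 50 after a transcript start, cover 10 starts of *Bcl11a*, *Mef2c*, *Hhex*, *Erg*, *Cebpa* and *Lyl1*, 6 of the 9 genes. Shown are the 250 bases before the start for the members that were called with sgCbfb and have a window, at the most 5′ of their RefSeq starts and, for *Mef2c*, also the next, and for *Lyl1*, which was not called and holds a PU.1 motif. Capitals mark that motif, GAGGAA, searched on both strands, and a stretch without capitals does not hold it.
*Bcl11a*, chr11:24080445-24080694, plus strand: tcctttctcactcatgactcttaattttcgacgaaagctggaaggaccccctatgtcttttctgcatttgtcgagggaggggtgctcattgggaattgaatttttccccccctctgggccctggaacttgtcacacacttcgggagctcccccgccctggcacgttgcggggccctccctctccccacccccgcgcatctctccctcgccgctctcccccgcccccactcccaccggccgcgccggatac
*Mef2c*, first start, chr13:83503784-83504033, plus strand: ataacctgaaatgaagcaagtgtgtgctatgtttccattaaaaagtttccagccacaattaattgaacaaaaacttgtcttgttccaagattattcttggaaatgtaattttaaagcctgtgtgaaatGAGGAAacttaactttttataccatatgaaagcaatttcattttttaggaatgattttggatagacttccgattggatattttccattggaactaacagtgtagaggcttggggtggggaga
*Mef2c*, second start, chr13:83523406-83523655, plus strand: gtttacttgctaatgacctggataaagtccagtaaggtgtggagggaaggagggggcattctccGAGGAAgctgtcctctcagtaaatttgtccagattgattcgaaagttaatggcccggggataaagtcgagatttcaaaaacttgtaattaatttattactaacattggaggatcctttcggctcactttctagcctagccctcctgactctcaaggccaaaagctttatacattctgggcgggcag
*Erg*, first start, chr16:95586594-95586843, minus strand: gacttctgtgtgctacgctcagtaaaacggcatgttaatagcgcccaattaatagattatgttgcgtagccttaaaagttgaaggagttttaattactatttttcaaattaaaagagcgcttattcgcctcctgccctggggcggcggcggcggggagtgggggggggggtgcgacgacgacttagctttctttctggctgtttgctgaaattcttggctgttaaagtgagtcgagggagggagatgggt
*Lyl1*, chr8:84701207-84701456, plus strand: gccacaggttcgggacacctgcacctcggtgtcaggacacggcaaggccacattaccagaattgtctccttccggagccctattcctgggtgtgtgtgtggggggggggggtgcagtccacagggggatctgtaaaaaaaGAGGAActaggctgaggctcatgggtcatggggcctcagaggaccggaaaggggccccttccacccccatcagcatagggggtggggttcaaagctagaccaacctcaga
GAGGAA stood in 3 of the 10 windows, those of the first and second *Mef2c* start and of *Lyl1*, and in 28.3% of all 32851 windows of that length. The RUNX motif, searched as TGTGGT or TGCGGT on both strands, was in 0 of the 10 windows and in 22.4% of all windows. The CTCF core AGGNGGC, which shares no base with a marked GAGGAA in the printed stretches, was in 4 of the 10 windows (the second *Mef2c* start, the first *Erg* start, *Cebpa* and *Lyl1*) and in 29.4% of all windows. These are matches of letters in short windows, and the 3′ reads do not tell which start of *Mef2c* or *Erg* was in use.

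With sgCbfb, members were called in both directions in LPs and higher alone in Phase 1 cells. To be called, a gene needed a limma P under 0.05 after Benjamini-Hochberg adjustment over all genes tested, means more than 2-fold apart, and more than 10 CPM on average in at least 1 of the groups compared. In LPs of experiment 1, sgCbfb lowered 2 of the 9, *Bcl11a* and *Mn1*, where 0.597% of 13239 tested genes were called lower, and raised 1, *Erg*, where 1.1% were called higher. In LPs of experiment 2 the same comparison had 2 called lower, again *Bcl11a* and *Mn1* (1.65% of 13177 genes), and 2 called higher, *Erg* and *Lmo2* (2.67%). Phase 1 cells had 4 called higher with sgCbfb, *Bcl11a*, *Lmo2*, *Mef2c* and *Mn1*, and 0 lower, against 1.96% and 1.56% of all genes. The median limma log2 fold change of the 9 was 0.34, 0.29 and 1.07 in these 3 comparisons, and that of all genes tested was 0.00, -0.01 and 0.06. *Bcl11a* and *Mn1* thus fell with sgCbfb in LPs and rose with it in Phase 1 cells.

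With sgCTCF and with sgMed12, 0 of the 9 were called against sgControl. With sgCTCF, 0.622% of all genes were called lower and 1.81% higher, and with sgMed12, 0.364% and 0.668%. At an unadjusted limma P under 0.05, 2 and 4 members differed with sgCTCF and sgMed12, and edgeR called 0 in each. The share of all genes under that unadjusted P is not given here or below, so such counts have no background beside them. Without replicate 2 of sgMed12, which stood apart, 0 members were called with sgMed12 and 6 passed the adjusted P under the fold threshold, against 2 with it. Calls over all genes also rose without that library. The share of all genes passing the adjusted P alone is not given, so the 6 have no background. Between sgRNAs, 2 members were called lower and 0 higher with sgCTCF than with sgCbfb, *Lmo2* and *Erg*, beside 3.38% and 3.48% of all genes. The same 2 genes were called lower with sgMed12 than with sgCbfb, with 0 higher, beside 2.72% and 1.76%. With sgMed12 against sgCTCF, *Erg* was called higher and 0 members lower, beside 1.71% and 2.31%. These comparisons share their sgCbfb, sgCTCF and sgMed12 libraries, so their calls are not separate observations.

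**Figure D1:**
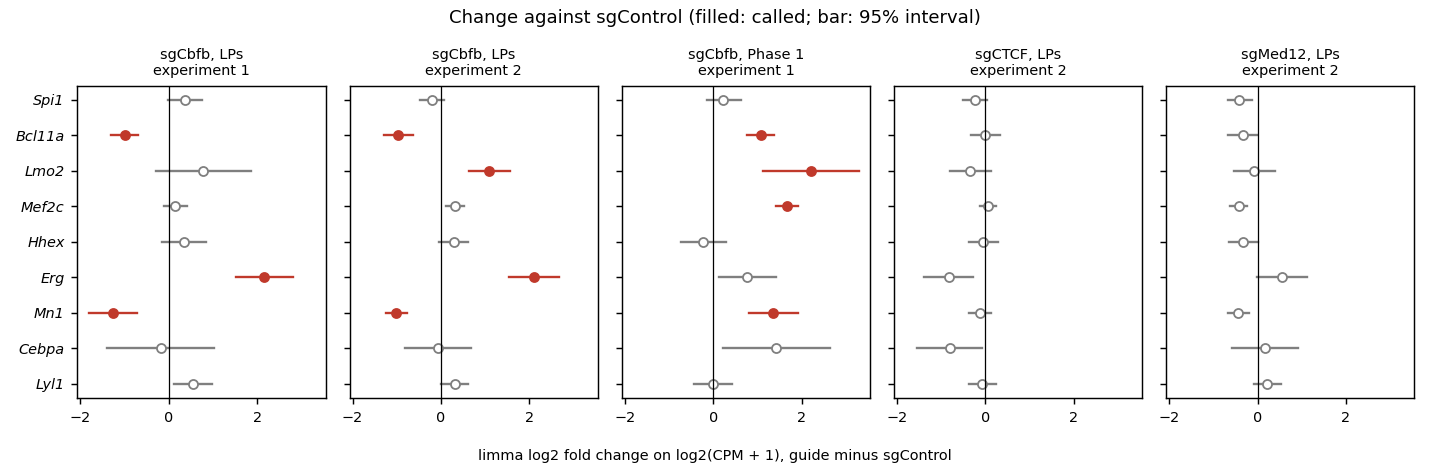
The limma log2 fold change on log2(CPM + 1) of each of the 9 genes, guide minus sgControl, in 5 comparisons of 3 libraries against 3, with bars for the 95% interval and filled red points for called genes. *Bcl11a* and *Mn1* lie below 0 in both LP panels of sgCbfb and above 0 in the Phase 1 panel, and no point is filled in the sgCTCF and sgMed12 panels.

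The labelled cell type was checked against its markers. All 10 lymphoid progenitor markers had more than 3 reads in some library of each experiment. Their summed level was 1542 to 1889.9 CPM in sgControl LPs, 1993 to 2419 CPM in sgCbfb LPs, 1702 to 1911 CPM in sgControl Phase 1 cells and 1921 to 2081 CPM in sgCbfb Phase 1 cells. In experiment 2 it was 1387 to 1618 CPM with sgControl, 1845 to 2100.5 CPM with sgCbfb, 1504 to 1669.9 CPM with sgCTCF and 974 to 1272.5 CPM with sgMed12, so the sgCbfb libraries lay highest and the sgMed12 libraries lowest. The summed early T markers were 42.7 to 62.6 CPM in sgControl LPs and 871 to 1042.5 CPM in sgControl Phase 1 cells, and 73.4 to 88.2 and 324 to 352 CPM in sgCbfb LPs and Phase 1 cells. They were 25.3 to 32.4 CPM with sgControl, 41.6 to 78.3 CPM with sgCbfb, 61.3 to 65.4 CPM with sgCTCF and 44.2 to 57.6 CPM with sgMed12 in experiment 2. Summed markers of other cell types differed between groups. Myeloid markers summed to 96.6 to 117 CPM in sgControl LPs and 227 to 248.98 CPM in sgCbfb LPs of experiment 1, to 61.4 to 78.5 and 221 to 241 CPM in Phase 1 cells, and in experiment 2 to 80.6 to 103 CPM with sgControl, 314 to 425 CPM with sgCbfb, 125 to 177 CPM with sgCTCF and 77.1 to 116 CPM with sgMed12. Between sgControl and sgCbfb, most of the difference in the sum lay in the monocyte marker *Ly6c2* and, in experiment 1, also in the macrophage marker *Adgre1*. *Ly6c2* had 12.8 to 18.3 CPM in sgControl LPs and 82.1 to 93.5 CPM in sgCbfb LPs of experiment 1, 8.07 to 9.68 and 87.8 to 106 CPM in Phase 1 cells, and 8.97 to 14.2 and 228 to 294 CPM in experiment 2. It was also higher with sgCTCF, at 68.4 to 94.3 CPM, and had 8.76 to 24.4 CPM with sgMed12. *Adgre1* had 56.3 to 64.9 and 95.2 to 106 CPM in LPs and 12.5 to 23.2 and 93.4 to 109.6 CPM in Phase 1 cells of experiment 1. Smaller rises with sgCbfb in LPs included *Mpo*, from 2.48 to 9.63 CPM with sgControl to 12.8 to 19.0 CPM in experiment 1. In experiment 2 *Mpo* had 4.14 to 5.91 and 9.57 to 23.3 CPM. *Lyz2* had 0.487 to 1.58 and 2.52 to 4.56 CPM there, and overlapped in LPs of experiment 1. Other markers of the list were lower with sgCbfb in Phase 1 cells, such as *Prtn3*, at 3.53 to 7.34 CPM with sgControl and 0 to 1.89 CPM with sgCbfb, and *Cd68*, at 7.06 to 9.54 and 1.26 to 5.19 CPM. These markers, and the globin gene given next, were named after their values were seen. In this list, 7 and 8 of the 13 markers had more than 3 reads in a library of experiments 1 and 2, the granulocyte genes *Ctsg* and *Ms4a3* were at 0 in all 24 libraries, and *S100a8* and *S100a9* were at 0 in experiment 2.

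The erythroid and megakaryocyte markers summed to 111 to 158 CPM in sgControl LPs, 542 to 602 CPM in sgCbfb LPs, 1552 to 1589.6 CPM in sgControl Phase 1 cells and 2447 to 2651 CPM in sgCbfb Phase 1 cells. In experiment 2 the sums were 129 to 144 CPM with sgControl, 797 to 955 CPM with sgCbfb, 59.3 to 89.9 CPM with sgCTCF and 98.9 to 148 CPM with sgMed12. Nearly all of this was 1 gene, the β-globin *Hbb-bt*, which alone had 2439.9 to 2650.2 CPM in sgCbfb Phase 1 cells, and 4 of the 10 markers had more than 3 reads in any library. *Epor*, *Hba-a1* and *Pf4* were at 0 in experiment 1, and *Hba-a2* and *Pf4* in experiment 2. Markers of B cells, of which *Cd79a* was at 0 throughout and 6 and 5 of 10 had more than 3 reads in experiments 1 and 2, summed to 297 to 411 CPM in sgControl LPs, 171 to 217 CPM in sgCbfb LPs and 150.4 to 212 CPM in Phase 1 cells, and in experiment 2 to 245 to 319 CPM with sgControl, 168 to 226 CPM with sgCbfb, and 209 to 346 CPM with sgCTCF or sgMed12. Those of stroma summed to 2.14 to 59.1 CPM, with *Col3a1*, *Dcn* and *Postn* at 0 in all 24 libraries. *Bcl11a*, *Mn1*, *Erg*, *Lmo2* and *Mef2c* changed in these same sgCbfb or Phase 1 groups, and the part of other cell types in their changes was not tested. In sorted bulk cells, fewer cells of a type and less RNA per cell cannot be told apart.

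*Spi1* was not called in any of 11 comparisons. In experiment 1 the 3 sgControl LP libraries had 95.02, 62.5 and 76.4 CPM of *Spi1*, and the sgCbfb LP libraries had 101, 90.6 and 108 CPM. Phase 1 sgControl cells had 79.1, 94.8 and 117 CPM, and Phase 1 sgCbfb cells had 104, 131 and 105 CPM. The group means ran from 78.0 ± 16.3 CPM in sgControl LPs through 96.8 ± 18.9 CPM in sgControl Phase 1 cells and 99.99 ± 8.95 CPM in sgCbfb LPs to 113.3 ± 15.6 CPM in sgCbfb Phase 1 cells (SD, n = 3), and each neighbour in that order overlapped the next. Culture on the Notch ligand left *Spi1* with a limma log2 fold change of 0.31 in sgControl cells (95% interval -0.07 to 0.69, adjusted P = 0.37) and of 0.17 in sgCbfb cells (-0.21 to 0.56, adjusted P = 0.80). The sgCbfb change was 0.37 in LPs (-0.01 to 0.75, adjusted P = 0.45) and 0.23 in Phase 1 cells (-0.15 to 0.62, adjusted P = 0.56).

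In experiment 2, *Spi1* was 126, 123 and 105 CPM with sgControl, 110, 111 and 86.4 CPM with sgCbfb, 99.8, 97.2 and 103 CPM with sgCTCF, and 81.9, 110 and 76.9 CPM with sgMed12. The sgControl mean was highest, and its libraries overlapped the sgCbfb and sgMed12 groups and not the sgCTCF group. The sgCbfb log2 fold change was -0.21 (95% interval -0.48 to 0.07, limma adjusted P = 0.38), the sgCTCF change -0.24 (-0.51 to 0.04, adjusted P = 0.31) and the sgMed12 change -0.41 (-0.68 to -0.13, adjusted P = 0.062). Without replicate 2 of sgMed12, the library that stood apart, the last was -0.56 with an adjusted P of 0.00094, under the fold threshold. *Spi1* thus had 0 calls by limma and by edgeR, and 1 of the 11 comparisons had an unadjusted limma P under 0.05. The sign of the sgCbfb change in LPs differed between the experiments for *Spi1* alone among the 9, and neither value passed the test.

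*Cebpa*, which encodes C/EBPα, was near the floor. Its libraries held 1 to 14 reads in experiment 1 and 5 to 24 in experiment 2. In Phase 1 cells the sgControl libraries had 0.705, 1.94 and 2.20 CPM, all of them with 3 reads or fewer, and the sgCbfb libraries had 9.08, 5.03 and 4.12 CPM. The groups did not overlap, and the limma adjusted P was 0.19. In LPs of experiment 1, *Cebpa* stood at 5.22 ± 2.99 CPM with sgControl and at 4.35 ± 2.38 CPM with sgCbfb, and in experiment 2 it was 4.54 ± 1.62 and 4.29 ± 1.61 CPM, with overlap in both. With sgCTCF it was 2.13 ± 0.683 CPM, below all sgControl libraries (log2 fold change -0.81, limma adjusted P = 0.17), and with sgMed12 5.34 ± 2.17 CPM (SD, n = 3). No group mean reached 10 CPM, so *Cebpa* could not be called by the rule, and differences at this level were not detectable at these depths unless large.

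**Figure D2:**
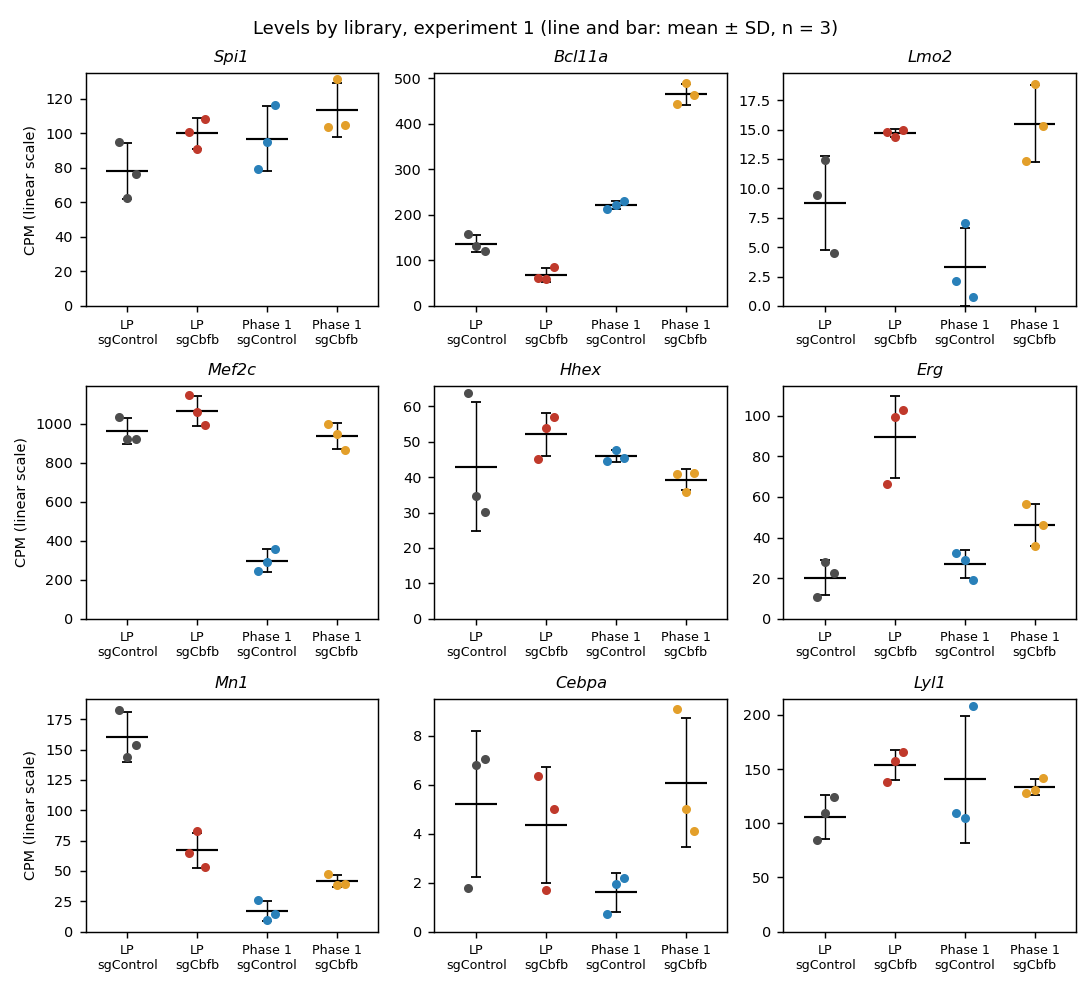
CPM of the 9 genes in the 12 libraries of experiment 1, 1 panel per gene on its own linear axis from 0, with points for libraries and a line and bar for mean ± SD (n = 3). *Mef2c* lies between 246 and 359 CPM in Phase 1 sgControl cells and at 863 CPM or more in the other groups, *Bcl11a* is highest in Phase 1 sgCbfb cells, *Erg* is highest in sgCbfb LPs, and the *Spi1* groups overlap one with the next.

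*Bcl11a*, a zinc finger repressor needed by lymphoid progenitors and B cells, was lower with sgCbfb in LPs and higher with it in Phase 1 cells. In experiment 1 sgControl LPs had 157, 132 and 120 CPM and sgCbfb LPs had 60.7, 58.5 and 84.9 CPM. Phase 1 sgControl cells had 212, 223 and 230 CPM, and Phase 1 sgCbfb cells had 442, 489 and 462 CPM. None of the 4 groups overlapped another. Sorted by level, sgCbfb LPs were lowest, then sgControl LPs, then sgControl Phase 1 cells, and sgCbfb Phase 1 cells were highest. From LP to Phase 1, *Bcl11a* rose 6.83-fold in sgCbfb cells (limma log2 fold change 2.77, SE 0.149, adjusted P = 3.8e-11), while in sgControl cells it was 1.62 times as high (log2 fold change 0.70, SE 0.149, adjusted P = 0.0043), under the fold threshold.

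*Bcl11a* fell with sgCbfb in LPs of experiment 2 as well. The sgControl libraries had 103, 148 and 97.6 CPM and the sgCbfb libraries 56.6, 57.9 and 58.4 CPM, a ratio of the means of 0.497 (limma log2 fold change -0.97, SE 0.159, adjusted P = 7.1e-05), and the groups did not overlap. The 3 sgCbfb libraries lay within 2 CPM of each other, and sgControl replicate 2 stood highest. In both experiments the ratio of the means was close to the threshold of the call: sgCbfb cells had 0.499 of the sgControl level in experiment 1 and 0.497 in experiment 2. *Bcl11a* therefore left the called genes when LP sgControl replicate 1, LP sgCbfb replicate 1 or LP sgCbfb replicate 2 was left out in experiment 1 (log2 fold change -0.93 to -0.90) and when sgControl replicate 2 or sgCbfb replicate 1 was left out in experiment 2 (-0.79 and -0.96), each time on the ratio and with an adjusted P of 0.0029 or lower. With sgCTCF *Bcl11a* was 115 ± 18.1 CPM and with sgMed12 91.3 ± 19.2 CPM, against 116.1 ± 27.5 CPM with sgControl (SD, n = 3), and the limma intervals of the log2 fold change were -0.33 to 0.33 and -0.67 to -0.01 (adjusted P = 1.0 and 0.19). Without replicate 2 of sgMed12, the library that stood apart, the sgMed12 change was -0.46 (limma adjusted P = 0.032), under the fold threshold. *Bcl11a* was 1.99 times as high with sgCTCF as with sgCbfb, just under the threshold (adjusted P = 4.5e-05).

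*Mef2c*, a MADS box factor of lymphoid-primed progenitors, fell on Notch stimulation in sgControl cells and was not called in sgCbfb cells. It had 1037, 923 and 924 CPM in sgControl LPs and 246, 291 and 359 CPM in sgControl Phase 1 cells, a 3.22-fold fall (limma log2 fold change -1.70, SE 0.121, adjusted P = 3.2e-09). In sgCbfb cells it had 1148, 1061 and 993 CPM as LPs and 997, 946 and 863 CPM as Phase 1 cells, where the groups overlapped and the log2 fold change was -0.19 (95% interval -0.44 to 0.06, adjusted P = 0.59). With sgCbfb, *Mef2c* in Phase 1 cells was thus 3.13 times as high as with sgControl (log2 fold change 1.66, SE 0.121, adjusted P = 6.2e-09). The difference between the stages in the sgCbfb effect was 1.51 (SE 0.172, limma interaction, adjusted P = 2.3e-05), and these calls held with any single library left out.

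In LPs the *Mef2c* changes were small. The sgCbfb libraries of experiment 2 had 1102, 1090 and 957 CPM and the sgControl libraries 839, 880 and 806 CPM, without overlap and 1.25 times as high (limma log2 fold change 0.32, SE 0.0929, adjusted P = 0.023), under the fold threshold. In experiment 1 the LP groups overlapped (log2 fold change 0.15, 95% interval -0.10 to 0.40, adjusted P = 0.74). With sgMed12, *Mef2c* was 628, 595 and 646 CPM, below all other libraries of experiment 2 and 0.741 times the sgControl mean (log2 fold change -0.43, SE 0.0929, adjusted P = 0.0084), again under the fold threshold, and -0.40 without replicate 2 (adjusted P = 0.00063). With sgCTCF it was 851, 922 and 863 CPM, which overlapped sgControl (log2 fold change 0.06, 95% interval -0.13 to 0.25, adjusted P = 0.76). The sgMed12 cells were lower than the sgCbfb cells by 0.75 and than the sgCTCF cells by 0.49 on the log2 scale (adjusted P = 1.5e-06 and 0.00052), in both cases under the fold threshold.

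*Mn1*, a transcriptional coregulator known from myeloid leukaemia and stem cell programs, had the largest fall of the 9 on Notch stimulation. It had 183, 144 and 154 CPM in sgControl LPs and 26.1, 9.68 and 14.7 CPM in sgControl Phase 1 cells, a 9.53-fold fall (limma log2 fold change -3.28, SE 0.266, adjusted P = 1.9e-08). In sgCbfb cells it was 64.9, 82.6 and 53.5 CPM in LPs and 47.3, 38.3 and 39.5 CPM in Phase 1 cells. These groups did not overlap, and the log2 fold change of -0.65 did not pass the test (95% interval -1.21 to -0.10, adjusted P = 0.29). The sgCbfb groups of both stages lay between the sgControl groups. The interaction of stage and sgCbfb was 2.62 (SE 0.376, adjusted P = 4.4e-04), and it was called with any single library left out. The fall with sgCbfb in LPs of experiment 1 was not called without sgControl replicate 1 or sgCbfb replicate 3 (limma adjusted P = 0.056 and 0.063).

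In experiment 2, *Mn1* had 170, 161 and 148 CPM with sgControl and 92.1, 78.6 and 67.3 CPM with sgCbfb, without overlap. The ratio of the means was 0.497 (limma log2 fold change -1.01, SE 0.116, adjusted P = 4.3e-07), close to the threshold, and without sgControl replicate 1 or sgCbfb replicate 3 the log2 fold change was -0.96 or -0.90 and the gene was not called. With sgMed12 it was 115, 121 and 115 CPM, below all 3 sgControl libraries and above all 3 sgCbfb libraries (log2 fold change against sgControl -0.44, SE 0.116, adjusted P = 0.024), under the fold threshold. With sgCTCF it was 154, 136 and 150 CPM and overlapped sgControl (log2 fold change -0.12, 95% interval -0.36 to 0.12, adjusted P = 0.60). By mean level the order was sgControl, sgCTCF, sgMed12 and sgCbfb, and only the first pair overlapped.

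**Figure D3:**
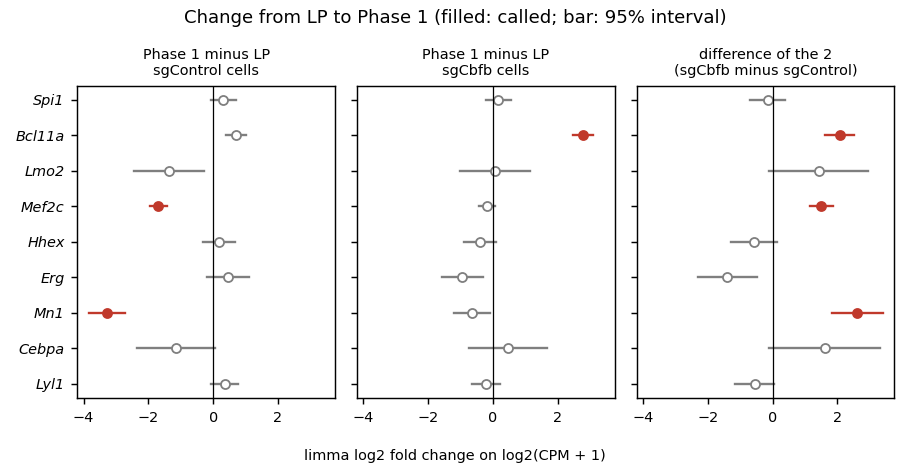
The limma log2 fold change from LP to Phase 1 of the 9 genes in sgControl cells and in sgCbfb cells of experiment 1, and the difference between these changes, with 95% intervals and filled red points for called genes (3 libraries per group). *Mef2c* and *Mn1* are called lower in the sgControl panel only, *Bcl11a* is called higher in the sgCbfb panel, and these 3 genes are called in the panel of the difference.

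Counted over the 9, the response to Notch stimulation in sgControl cells had 2 members called lower, *Mef2c* and *Mn1*, and 0 higher, beside 1.74% and 1.65% of all genes. In sgCbfb cells 0 were called lower and 1 higher, *Bcl11a*, beside 0.453% and 0.74%. The interaction of stage and sgCbfb, called on the adjusted P and on a level above 10 CPM on average in at least 1 of its 4 groups, had 3 members with a more positive sgCbfb effect in Phase 1 cells and 0 with a more negative one, beside 0.589% and 0.597% of all genes. The median interaction of the 9 was 1.43 on the log2 scale and that of all genes was 0.06. This median was the value of *Lmo2*, which was not called (limma adjusted P = 0.52). *Lmo2* had 3, 11 and 1 reads in the Phase 1 sgControl libraries. *Spi1*, *Lyl1*, *Hhex* and *Erg* had negative values, -0.14, -0.55, -0.56 and -1.39, and the remaining members had 1.51 to 2.62. The median therefore does not show a shift of the whole set. These comparisons share the 4 groups of experiment 1. Without replicate 3 of Phase 1 sgControl, which stood apart, the members named here remained called in each, with log2 fold changes from LP to Phase 1 in sgControl cells of -1.84 for *Mef2c* and -3.24 for *Mn1* and interactions of 2.10 for *Bcl11a*, 1.65 for *Mef2c* and 2.58 for *Mn1*, and *Erg* was called as well. The rises with sgCbfb in Phase 1 cells were then 1.09 for *Bcl11a*, 1.70 for *Lmo2*, 1.80 for *Mef2c* and 1.32 for *Mn1*, all called.

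*Erg*, an ETS factor of haematopoietic stem cells and of early T progenitors, rose most among the members with sgCbfb in LPs. Experiment 1 had 10.6, 27.9 and 22.5 CPM in sgControl LPs and 66.3, 99.2 and 103 CPM in sgCbfb LPs, a 4.40-fold rise (limma log2 fold change 2.16, SE 0.309, adjusted P = 1.3e-04). Experiment 2 had 12.9, 16.2 and 9.98 CPM with sgControl and 68.3, 58.5 and 49.4 CPM with sgCbfb, a 4.50-fold rise (log2 fold change 2.10, SE 0.272, adjusted P = 2.6e-06). The groups did not overlap in either experiment, and both calls held with any single library left out. In Phase 1 cells *Erg* was 32.5, 29.0 and 19.1 CPM with sgControl and 56.4, 35.8 and 46.0 CPM with sgCbfb, without overlap, and the log2 fold change of 0.77 was not called (95% interval 0.12 to 1.41, adjusted P = 0.18). The effect differed between stages by -1.39 (95% interval -2.30 to -0.48, limma interaction, adjusted P = 0.17), and by -1.61 without replicate 3 of Phase 1 sgControl (adjusted P = 0.0094).

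The other sgRNAs set *Erg* apart from sgCbfb. With sgCTCF it was 7.25, 3.62 and 11.3 CPM and with sgMed12 21.8, 21.5 and 15.0 CPM. Both groups overlapped sgControl, with log2 fold changes of -0.83 (95% interval -1.39 to -0.27, limma adjusted P = 0.052) and 0.55 (-0.01 to 1.11, adjusted P = 0.23). The fall with sgCTCF was called only without sgCTCF replicate 3, the highest of its group (log2 fold change -1.16, adjusted P = 0.0078). *Erg* was 7.94 times as high with sgCbfb as with sgCTCF (adjusted P = 7.5e-09), 3.02 times as high as with sgMed12 (adjusted P = 1.7e-04), and 2.63 times as high with sgMed12 as with sgCTCF (adjusted P = 8.6e-04), and the groups of each of these pairs did not overlap.

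*Hhex*, a homeobox factor of early lymphoid development, was not called in any of the 11 comparisons by limma or edgeR, with an unadjusted limma P under 0.05 in 2. In experiment 1 its group means ran from 39.3 ± 3.03 CPM in sgCbfb Phase 1 cells to 52.1 ± 6.19 CPM in sgCbfb LPs (SD, n = 3), and sgControl LPs held both the lowest library, 30.2 CPM, and the highest, 63.7 CPM. In experiment 2 it was 42.2, 46.7 and 43.6 CPM with sgControl and 56.0, 53.4 and 52.9 CPM with sgCbfb, which did not overlap, and the log2 fold change of 0.29 did not pass the test (95% interval -0.04 to 0.62, limma adjusted P = 0.29). With sgMed12 it was 29.95, 46.8 and 30.7 CPM, where replicate 2, which stood apart over all genes, lay just above all 3 sgControl libraries. Against sgCbfb, sgMed12 cells were lower by 0.61 on the log2 scale (SE 0.160, adjusted P = 0.0087), under the fold threshold. Without that replicate the sgMed12 change against sgControl was -0.53 (adjusted P = 0.010), under the fold threshold too.

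*Lmo2* and *Lyl1* encode a LIM-domain bridging protein and a bHLH factor that act in 1 DNA-binding complex in progenitors. *Lmo2* was called in 4 of the 11 comparisons, at low levels. In experiment 1 it had 9.44, 12.4 and 4.50 CPM in sgControl LPs, 14.8, 14.3 and 15.0 CPM in sgCbfb LPs, 2.12, 7.10 and 0.733 CPM in sgControl Phase 1 cells and 12.3, 18.9 and 15.3 CPM in sgCbfb Phase 1 cells. The sgControl Phase 1 libraries held 3, 11 and 1 reads, and sgCbfb lay above sgControl without overlap in both stages. *Lmo2* rose with sgCbfb in Phase 1 cells (limma log2 fold change 2.21, SE 0.520, adjusted P = 0.010), a call that was lost without sgCbfb replicate 2 (adjusted P = 0.061) and in a fit of the 2 groups alone (adjusted P = 0.052). The fold change was 2.81 without sgControl replicate 2, which held 11 of that group's 15 reads, 1.70 without sgControl replicate 3, and 1.36 with a pseudocount of 5 CPM in place of 1.

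In LPs, the rise of *Lmo2* was called in experiment 2 only. It was 12.7, 15.9 and 11.4 CPM with sgControl and 33.1, 26.3 and 28.7 CPM with sgCbfb, a 2.20-fold rise without overlap (limma log2 fold change 1.09, SE 0.223, adjusted P = 0.0010). In experiment 1 the log2 fold change was 0.78 (95% interval -0.30 to 1.86, adjusted P = 0.66), an interval that holds the value of experiment 2. With sgCTCF *Lmo2* had 8.86, 10.6 and 11.6 CPM and with sgMed12 13.8, 14.8 and 9.65 CPM, and both overlapped sgControl. It was 2.84 times as high with sgCbfb as with sgCTCF and 2.30 times as high as with sgMed12 (limma adjusted P = 2.6e-05 and 5.2e-04).

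*Lyl1* was not called in any of the 11 comparisons by limma or edgeR, with an unadjusted limma P under 0.05 in 3. In LPs it was higher with sgCbfb without overlap in both experiments, 138, 158 and 166 CPM against 84.4, 110 and 125 CPM in experiment 1 and 188, 157 and 174 CPM against 147, 122 and 151 CPM in experiment 2. The log2 fold changes of 0.54 and 0.31 did not pass the test (95% intervals 0.12 to 0.97 and 0.01 to 0.60, limma adjusted P = 0.23 and 0.19). In Phase 1 cells the sgControl libraries had 109, 105 and 208 CPM, with the last from the replicate that stood apart, and the sgCbfb libraries 128, 131 and 141 CPM. With sgCTCF *Lyl1* had 139, 123 and 138 CPM. With sgMed12 it had 218, 124 and 160 CPM, and without the replicate at 124 CPM the change against sgControl was 0.42 (adjusted P = 0.013), under the fold threshold.

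**Figure D4:**
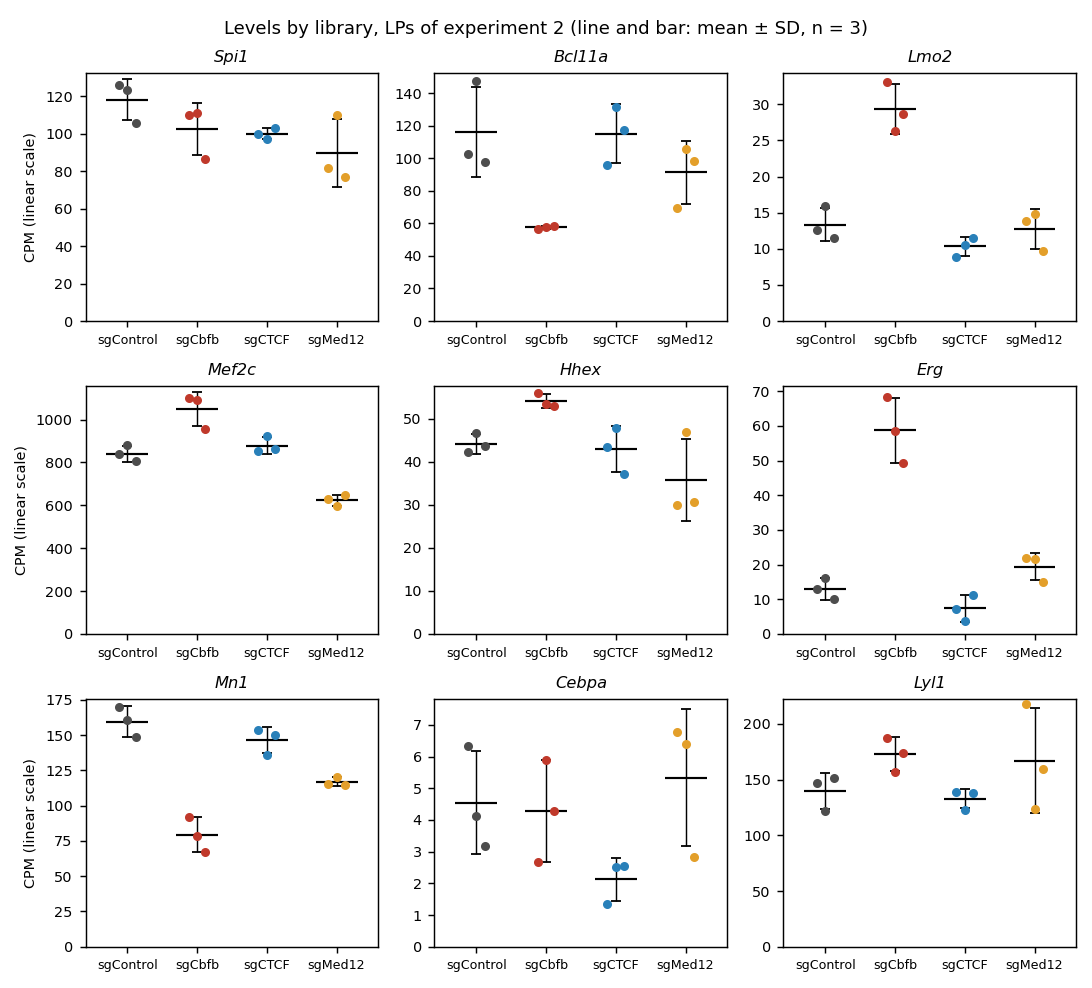
CPM of the 9 genes in the 12 LP libraries of experiment 2, 1 panel per gene on its own linear axis from 0, with points for libraries and a line and bar for mean ± SD (n = 3). *Erg* and *Lmo2* are highest and *Bcl11a* and *Mn1* lowest with sgCbfb, and *Mef2c* is lowest with sgMed12.

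Over both experiments, the sgCbfb change in LPs had the same sign for 8 of the 9 genes, all but *Spi1*. Of these, *Bcl11a*, *Mn1* and *Erg* were called in both experiments, *Lmo2* in experiment 2 alone, and *Mef2c*, *Hhex*, *Cebpa* and *Lyl1* in neither. The sign of *Cebpa* changed under some alternatives in each experiment, and the share of all genes with the same sign is not given here. The tables were scaled separately, so only the changes within each were set side by side. Across the 24 libraries, with each gene's log2(CPM + 1) centred within its experiment, the members were most alike in *Lmo2* and *Mef2c* (Pearson r = 0.72), *Mef2c* and *Mn1* (0.64) and *Lmo2* and *Erg* (0.63). The second of these did not hold in both experiments, with r = 0.76 in experiment 1 and -0.32 in experiment 2, whereas *Lmo2* and *Erg* had 0.52 and 0.91. *Bcl11a* and *Mn1* had r = -0.42 in experiment 1 and 0.84 in experiment 2, which has no Phase 1 cells. The highest r of *Spi1* with a member was 0.39, with *Hhex*. Among 8621 genes with a mean over 10 CPM in at least 1 group of each experiment, the most like *Spi1* were *Cep41* (r = 0.73), *Mbd1* (0.72) and *Thoc5* (0.70), over a spread of *Spi1* itself of 0.25 (SD on the log2 scale). All of these libraries share their groups, depths and normalization, so r is given as a description.

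Genes known as targets of PU.1 were called with sgCbfb in both LP experiments and in Phase 1 cells, while *Spi1* itself was not called. Of 23 tested, 4 rose and 2 fell in LPs of experiment 1, 5 rose and 1 fell in LPs of experiment 2, and 5 rose and 0 fell in Phase 1 cells. Over all genes tested, 1.1%, 2.67% and 1.96% were called higher and 0.597%, 1.65% and 1.56% lower in these comparisons, so more genes rose than fell over the whole tables too. Their median log2 fold changes were 0.05, 0.14 and 0.24, with 0.00, -0.01 and 0.06 for all genes. In LPs of experiment 1 the largest rises were those of *Csf2rb*, the shared β chain of the GM-CSF, IL-3 and IL-5 receptors, from 35.1 ± 13.1 to 106 ± 9.98 CPM, and of *Cd44*, an adhesion receptor, from 103 ± 8.98 to 243 ± 18.6 CPM (SD, n = 3). The falls were those of *Ncf1*, a subunit of the phagocyte oxidase, from 154 ± 6.39 to 67.0 ± 15.6 CPM, and of *Lyn*, a SRC family kinase, from 159.7 ± 12.6 to 77.4 ± 20.2 CPM. In experiment 2, *Cd44* rose from 119 ± 1.75 to 342 ± 19.0 CPM, *Csf2rb* rose from 26.7 ± 4.84 to 64.7 ± 8.01 CPM and *Ncf1* fell from 117 ± 6.14 to 30.1 ± 6.26 CPM. The largest rises in Phase 1 cells were those of the Fc receptor gene *Fcgr3*, from 13.9 ± 3.58 to 53.3 ± 9.77 CPM, and of *Csf2rb*, from 26.6 ± 5.41 to 74.4 ± 6.95 CPM. From LP to Phase 1 in sgControl cells 2 of the 23 fell and 0 rose, beside 1.74% and 1.65% of all genes. These were *Flt3*, a cytokine receptor of progenitors, from 273 ± 15.6 to 36.1 ± 20.4 CPM, and *Fcgr3*, from 36.2 ± 8.55 to 13.9 ± 3.58 CPM. With sgCTCF 1 rose, *Fcgr3*, from 38.0 ± 5.48 to 80.9 ± 18.2 CPM, where 1.81% of all genes were called higher. With sgMed12 0 were called by limma or edgeR, and 9 had an unadjusted limma P under 0.05, with no share of all genes beside it.

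Of the relatives and partners of PU.1, 13 were tested in experiment 1 and 12 in experiment 2, and 0 to 2 were called in each comparison with sgControl and from LP to Phase 1 in sgControl cells. Over all genes, 0.364% to 1.74% were called lower and 0.668% to 2.67% higher in these comparisons. With so few genes tested, a count of 0 or 1 does not set the list apart from these shares. *Irf8*, a partner of PU.1 in myeloid and dendritic cells, fell with sgCbfb in LPs of experiment 1 from 80.5 ± 14.1 to 25.7 ± 6.54 CPM, and 0 of the list rose. In Phase 1 cells *Spib*, the closest relative of *Spi1*, fell from 16.04 ± 3.69 to 1.94 ± 2.83 CPM, and *Spic*, a further relative, rose from 0.215 ± 0.372 to 13.5 ± 4.69 CPM, with the lower group of each mostly at 3 reads or fewer. *Egr1*, an immediate early factor, rose in LPs of experiment 2 from 3.70 ± 0.932 to 22.7 ± 14.0 CPM with sgCbfb and 0 of the list fell. *Irf4* and *Spib* rose with sgCTCF, from 4.54 ± 1.37 to 17.7 ± 3.35 CPM and from 8.87 ± 2.01 to 26.6 ± 3.84 CPM. From LP to Phase 1 in sgControl cells, *Klf4* rose from 18.0 ± 7.14 to 57.0 ± 18.1 CPM and *Jun* from 14.1 ± 4.40 to 42.4 ± 14.4 CPM (SD, n = 3). With sgMed12, 0 were called by limma or edgeR and 9 of the 12 had an unadjusted limma P under 0.05. Without the share of all genes at that P, this count does not set the list apart.

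Of 9 tested partners of LMO2 and LYL1 in their complex, such as LDB1, 0 were called in either direction with sgCbfb in LPs or Phase 1 cells, with sgCTCF or with sgMed12, by limma or by edgeR. With 0.364% to 2.67% of all genes called in either direction in these comparisons, 0 of 9 does not stand apart from the background. At an unadjusted limma P under 0.05 the counts were 1 and 6 with sgCbfb in LPs of experiments 1 and 2, 6 with sgCbfb in Phase 1 cells, 0 with sgCTCF and 1 with sgMed12. No share of all genes stands beside these counts. From LP to Phase 1 in sgControl cells 1 fell, *Ssbp2*, a single-strand DNA-binding protein that stabilizes LDB1, from 63.0 ± 12.6 to 28.7 ± 10.6 CPM (SD, n = 3). Of all genes, 1.74% were called lower there.

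Of 20 other progenitor regulators, 15 were tested, beside the same shares of all genes called with sgCbfb. In LPs of experiment 1, 2 rose and 0 fell, *Nfe2*, a factor of megakaryocytes and erythroid cells, from 6.75 ± 1.40 to 25.1 ± 9.94 CPM, and *Runx1* from 386 ± 60.3 to 779.5 ± 82.3 CPM (SD, n = 3). Experiment 2 had 3 risen and 0 fallen in LPs, led by *Nfe2*, from 5.82 ± 1.88 to 20.7 ± 5.50 CPM, and *Zfpm1*, the GATA cofactor FOG1, from 17.3 ± 3.02 to 41.1 ± 2.92 CPM. Of the same list, 3 rose and 1 fell in Phase 1 cells. *Runx2* rose from 24.1 ± 7.72 to 74.5 ± 11.9 CPM and *Hoxa9*, a homeobox factor of stem and progenitor cells, from 253 ± 18.9 to 564 ± 45.0 CPM, while *Zfpm1* fell from 63.7 ± 14.6 to 28.8 ± 8.18 CPM. From LP to Phase 1 in sgControl cells 3 fell, led by *Hoxa9* from 821 ± 60.6 CPM and *Runx2* from 52.7 ± 13.9 CPM, and 2 rose, *Nfe2* to 40.7 ± 6.98 CPM and *Zfpm1* from 18.6 ± 5.56 CPM. Of all genes, 1.74% were called lower and 1.65% higher there. With sgCTCF and sgMed12, 0 of the 15 were called by limma or edgeR. In each, 6 had an unadjusted limma P under 0.05, with no share of all genes beside it.

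Factors of the T lineage rose from LP to Phase 1 in sgControl cells, where *Mef2c* and *Mn1* fell. Of 10 tested, 6 rose and 0 fell, beside 1.65% and 1.74% of all genes. The largest rises were those of *Hes1*, from 1.63 ± 1.498 to 85.9 ± 25.6 CPM, and *Tcf7*, from 4.52 ± 2.85 to 148 ± 36.05 CPM (SD, n = 3). Of the 3 sgControl LP libraries, 1 had more than 3 reads of *Hes1* and 2 had more than 3 of *Tcf7*, so the sizes of these rises are uncertain. With sgCbfb in Phase 1 cells 3 fell and 1 rose, beside 1.56% and 1.96% of all genes. The falls were led by *Bcl11b*, from 438 ± 72.2 to 37.5 ± 1.99 CPM, and *Tcf7*, from 148 ± 36.05 to 12.7 ± 4.47 CPM. The gene that rose was *Zbtb7b*, from 1.60 ± 0.288 to 16.6 ± 0.381 CPM, with more than 3 reads in 0 of the 3 sgControl libraries. In LPs *Bcl11b* was the 1 that fell in each experiment, from 76.3 ± 12.2 to 13.6 ± 6.26 CPM and from 55.1 ± 13.0 to 2.95 ± 1.60 CPM, with 0 risen in experiment 1 and 2 in experiment 2, *Zbtb7b* and *Notch1*, from 6.99 ± 2.94 to 23.2 ± 3.97 CPM and from 189.6 ± 32.1 to 407 ± 42.7 CPM. Over all genes, 0.597% and 1.65% were called lower and 1.1% and 2.67% higher in these LPs of experiments 1 and 2. *Tcf7* and *Hes1* rose with sgCTCF, from 2.54 ± 0.796 to 18.0 ± 3.43 CPM and from 2.35 ± 0.782 to 15.2 ± 5.92 CPM, and *Hes1* rose with sgMed12, to 15.7 ± 6.55 CPM, with 0 lower in either. Of all genes, 1.81% were called higher and 0.622% lower with sgCTCF, and 0.668% and 0.364% with sgMed12.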

How the data were processed

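QuantSeq 3′ mRNA values of 24 libraries were used, and the labels put them in 8 groups of 3. Per the methods, the authors used fastp for trimming and STAR for mapping, with mm10 as the genome, and deposited 1 value per gene and library. The deposited values are CPM: they are headed TPM in the files, but the step between values was that of 1 read for long and short genes alike. Reads were recovered from 100.0% of values within 0.001 CPM. Versions, the counting tool and strand are not given in the sources used here. The authors' mean of sgControl in experiment 2 and a last line without a gene, which holds the value of 1 read, were not used.

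Genes that reached 1 CPM in 3 or more libraries of an experiment were tested on log2(CPM + 1) with limma 3.58.1 in R 4.3.3, with trended variances, all 4 groups in the fit and Benjamini-Hochberg adjustment over all genes tested. The thresholds of a call are the study's. The alternatives were pseudocounts of 0.1 and 5, no filter, median-of-ratios scaling, edgeR 4.0.16 (quasi-likelihood test, TMM) on the recovered reads, the replicate number as a block, only the groups compared, the threshold set on limma's fold change, no fold threshold, and each library left out in turn. The fits were tested on simulated data. From each pathway list the called genes were counted and up to 2 in each direction, those with the largest absolute log2 ratio of the means, were named in comparisons with sgControl and in Phase 1 against LP of sgControl cells. The members, lists and motifs were chosen with earlier results of these data known. With 3 libraries in each group the smallest exact permutation P is 0.1, so none is given. Tables were handled with pandas 2.3.3 and plots drawn with matplotlib 3.10.9.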

Additional observations from a re-analysis of the deposited data

Results flagged for a closer look

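The sgCbfb effect differed between Phase 1 cells and LPs for 3 of the 9 genes, by limma's interaction term with Benjamini-Hochberg adjustment over 13239 genes. The difference on the log2 scale, Phase 1 minus LP, was 2.07 for *Bcl11a* (SE 0.211, adjusted P = 7.7e-06), 1.51 for *Mef2c* (SE 0.172, adjusted P = 2.3e-05) and 2.62 for *Mn1* (SE 0.376, adjusted P = 4.4e-04), with 3 libraries in each of the 4 groups. For *Bcl11a* and *Mn1* every sgCbfb library lay below every sgControl library in LPs and above every one in Phase 1 cells. For *Mef2c* the LP groups overlapped.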

How the results depend on the processing

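No direction of a called change reversed. Of 2052 values of single members under alternatives, 2021 kept their side of the thresholds, 14 called changes were lost and 17 changes became called. The number of members called moved by more than 1.5 times in 6 of 228 alternatives. Without a fold threshold it was 2 in place of 0 for sgMed12 against sgControl, 4 in place of 2 for sgCTCF against sgCbfb, 6 in place of 2 for sgMed12 against sgCbfb, and 2 in place of 1 for sgMed12 against sgCTCF. Leaving out 1 library at a time, the count ran from 1 to 3 for sgCbfb in LPs of experiment 1, where 1 was left without LP sgControl replicate 1, and from 0 to 1 for sgCTCF, where 1 was called without sgCTCF replicate 3. The losses were those of *Bcl11a* and *Mn1* in LPs and of *Lmo2* in Phase 1 cells. With median-of-ratios scaling *Bcl11a* in LPs of experiment 1 and *Mn1* in those of experiment 2 fell just short of the fold threshold, as did *Bcl11a* in experiment 2 with that threshold set on limma's fold change (-0.97). Correlations of same-numbered libraries ran from -0.04 to 0.14 in experiment 1 and from -0.13 to 0.22 in experiment 2. Differently numbered libraries were not set beside them, so these values do not settle whether the replicate numbers pair the samples. With the replicate block the count of members called was 3, 4, 2, 1 and 3 for the 5 comparisons of experiment 1 and 4, 0, 0, 2, 2 and 1 for the 6 of experiment 2, the same as without it. Over all genes, calls for sgMed12 against sgControl ran from 54 to 822 around 136, 358 without sgMed12 replicate 2, 66 without sgControl replicate 2, 61 and 54 without sgMed12 replicates 1 and 3, 57 in a fit of those groups alone and 54 with no filter, and edgeR called 161. Without a fold threshold the calls over all genes were 1272 in place of 570 for sgCbfb and 1084 in place of 320 for sgCTCF in experiment 2, 2260 in place of 905, 1794 in place of 590 and 2105 in place of 529 between its sgRNAs, and 726 in place of 449 and 267 in place of 158 from LP to Phase 1 in sgControl and sgCbfb cells, the last also 245 in a fit of its groups alone. Depth limits *Cebpa* and, in Phase 1 sgControl cells, *Lmo2*.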
